A study of Mus musculus with 24 samples.

Results

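The proteasome genes of mouse gastrocnemius muscle were taken as the protein-coding genes whose symbol begins with Psma, Psmb, Psmc, Psmd, Psme, Psmf or Psmg and then a digit, which gave 50 of the 55416 genes counted. They comprise 8 genes of the alpha ring, 7 of the constitutive beta ring, 4 of the immunoproteasome and thymoproteasome beta subunits, 6 ATPases and 3 other subunits of the base, 8 genes of the lid, 5 activators, 1 inhibitor, 7 assembly chaperones, and Psmc3ip, a meiotic recombination gene that carries the name but is no subunit. RNA was sequenced from 24 mice, 6 males and 6 females under SMC and 6 males and 6 females as sham. SMC mice were housed for 8 weeks in the small mouse cage, an acrylic box that limits spontaneous movement, and sham mice could move about freely. The strain label reads C56BL6J, whereas the study's methods name C57BL/6J mice bought at 8 weeks of age. The labels give no transgene and no drug, and bulk muscle RNA was used, so every value is a mixture over fiber types and the other cells of the tissue. The comparisons ask whether inactivity changed the transcripts of the proteasome in either sex and whether the sexes differed.

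The proteasome is the barrel-shaped protease that degrades ubiquitin-tagged proteins. In its 20S core, rings of alpha subunits gate the entry and rings of beta subunits hold the active sites, and the 19S cap of base and lid captures, deubiquitinates and unfolds the substrate. In skeletal muscle, transcripts of core and cap subunits are known to rise together with the ubiquitin ligases Fbxo32 (atrogin-1) and Trim63 (MuRF1) during atrophy, and interferon exchanges the catalytic beta subunits for those of the immunoproteasome.

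Between 23026627 and 36880413 reads per mouse were counted on genes, and no pair of libraries within a group agreed within sampling noise. Values below are read counts scaled to library size (CPM, with TMM factors), the fold changes are log2 differences between group means ± SE, and a gene was called at a Benjamini-Hochberg false discovery rate (FDR) under 0.05 in edgeR's quasi-likelihood test over 16408 genes. The 9 skeletal muscle fiber markers were all expressed and summed to between 163100 and 413700 CPM per mouse. Their sums were 163100 to 320800 CPM in male sham and 293100 to 374400 CPM in male SMC. In females they were 163400 to 413700 CPM (sham) and 295400 to 375200 CPM (SMC). Of the 9 markers, 6 were higher in SMC males and 9 in SMC females. A pair of sham libraries stood apart. Slow fiber markers (10 of 10 tested) summed to 91.3 CPM in male sham replicate 4 and to 76.4 CPM in female sham replicate 7, against 714.4 CPM or more in the other libraries, and the slow myosin Myh7 was at 7.98 and 7.01 CPM. The 9 atrophy ubiquitin ligases summed to 5467 CPM in male sham replicate 4 and to 3391 CPM in female sham replicate 7, against 1459 to 1945 and 1694 to 2642 CPM in the other sham mice of the same sex. Of the 10 slow fiber markers, 6 were higher in SMC males and 10 in SMC females, none with an unadjusted p under 0.05. Fits with a slow fiber score (mean log2 CPM of the slow fiber markers) as a covariate, or without both libraries, are given below. Whether fiber type or tissue sampling caused any difference was not tested. Male fold changes of proteasome members that move by over 1.5 times or change sign without male sham replicate 4 are given both ways.

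Of the 50 genes, 48 passed the filter on low counts. Psma8, an alpha subunit of the testis, and Psmb11, the beta subunit of the thymus, stayed at or below 0.141 and 0.0974 CPM in every mouse and were not tested. The 31 subunits of the constitutive 26S proteasome summed to 2114 ± 443 CPM (SD, n = 6) in male sham and to 1757 ± 83.6 CPM in male SMC. The sums in females were 1814 ± 194 CPM (sham) and 1757 ± 110 CPM (SMC). The highest male sham mouse was replicate 4 with 2987 CPM. Per kilobase of exon, the group mean levels in male sham ran among these subunits from 9.78 CPM per kb for Psmd14, the deubiquitinase of the lid, to 48.5 CPM per kb for Psmd2, a scaffold of the base that docks ubiquitin carriers. Psme4, the PA200 activator, was at 47.3 CPM per kb and lay among the highest members. The immunoproteasome subunits were far lower, at 0.67 (Psmb8), 0.37 (Psmb9) and 2.76 CPM per kb (Psmb10) in the same mice. The 7 assembly chaperones lay between 0.70 (Psmg3) and 4.18 CPM per kb (Psmg2). In bulk tissue, fewer cells of a type and less RNA per cell cannot be told apart.

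In male mice, all 31 constitutive 26S subunits were estimated lower under SMC, by a median of -0.26 on the log2 scale, ranging from -0.47 for Psma5 to -0.14 for Psmb6. No member passed the FDR threshold in edgeR, and the share called among all genes was 0%. At an unadjusted p under 0.05, 24 of the 48 members were lower and none was higher, against 11% of all genes in either direction. All 24 were 26S subunits. DESeq2 called 7 members, all lower, among 133 genes, and limma's voom with quality weights called 3 among 93 genes. The median over the 16408 genes was -0.0044. The subunits were measured in the same libraries and move together, so their count is no count of independent observations. Without male sham replicate 4, the median of the 26S subunits was -0.16, and the 31 subunits remained lower, ranging from -0.30 to -0.073. In that fit 17 of them had an unadjusted p under 0.05, against 10.9% of all genes. With the slow fiber score as a covariate, the male median was -0.19 and 24 had such a p, against 13.8% of all genes. Without both low slow fiber libraries the median was -0.16 and 19 had one, against 12.3%. All 31 were lower in both fits. When male sham replicate 5, the lowest of its group in 26 of the 31 subunits, was left out, 6 members among 78 genes were called, all lower (Psma2, Psma5, Psma7, Psmb1, Psmb4 and Psmb5). Markers of 2 other cell types had fold changes of opposite sign in the sexes. None had an unadjusted p under 0.05 within a sex, and 1 adipocyte gene had one in the interaction, where 5.13% of all genes did. The 5 red blood cell markers were all lower in SMC males (median -0.43) and all higher in SMC females (0.052), and the 5 adipocyte markers were all lower in males (-0.46) and all higher in females (0.79). Summed red blood cell markers ranged over 173.6 to 1568 CPM in male sham and 266.5 to 1214 CPM in male SMC, and over 73.9 to 1842 and 255.1 to 942.6 CPM in female sham and SMC. Adipocyte markers summed to 3.77 to 81.5 and 6.63 to 40.04 CPM in the male groups, and to 18.1 to 86.9 and 15.8 to 174.6 CPM in the female groups. None of these markers was at 0 in all mice, and their part in the subunit values was not tested.

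**Figure D1:**
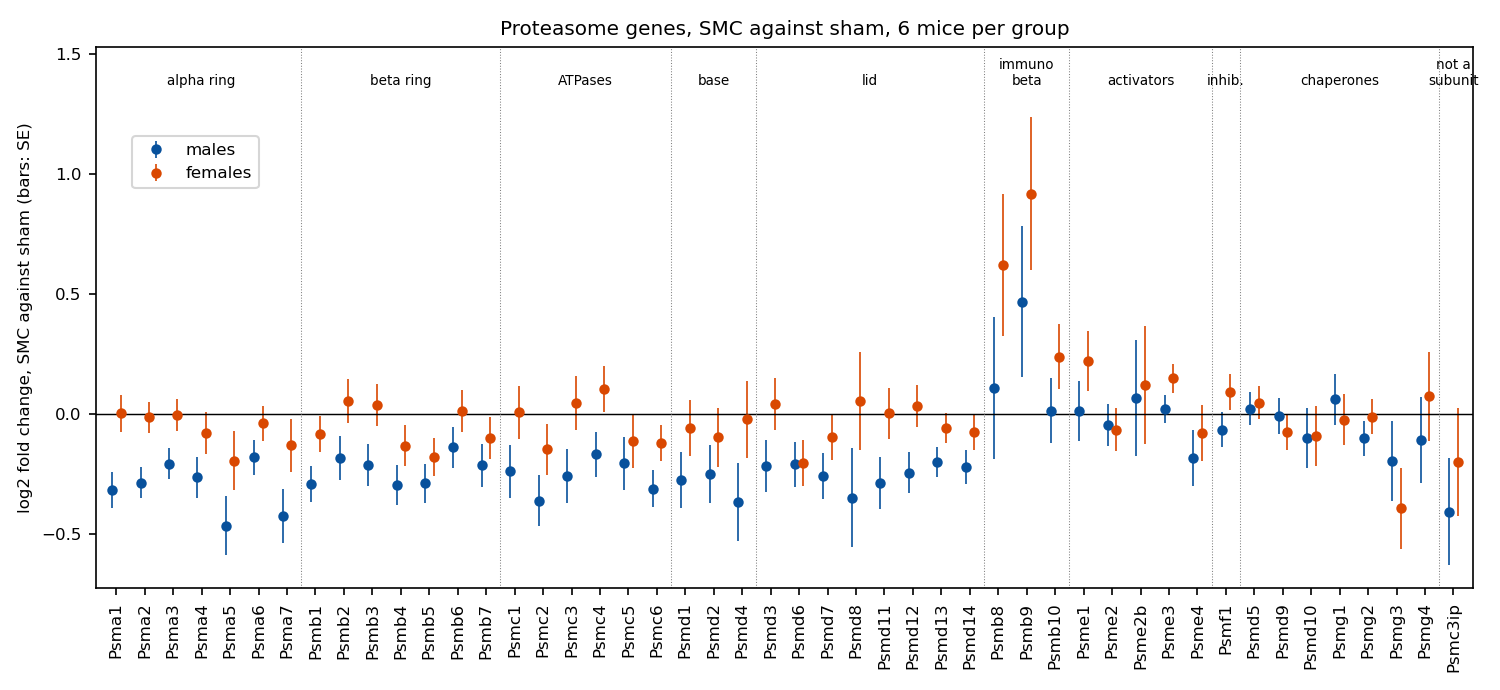
Log2 fold change of SMC against sham for the 48 tested members in males (blue) and females (orange), with bars for the SE of the fit over 24 mice. The 31 subunits of the alpha and beta rings, ATPases, base and lid all lie below 0 in males, and 20 of them do in females, whereas the immunoproteasome subunits lie above 0 in both.

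In female mice, the same 31 subunits were spread about 0, 20 lower and 11 higher, with a median of -0.060 on the log2 scale, ranging from -0.21 (Psmd6) to 0.10 (Psmc4). No member separated the female groups without overlap, as 1.02% of all genes did. None of them was called by edgeR, by DESeq2 or by voom, where edgeR called 0.341% of all genes. At an unadjusted p under 0.05, 6 of 48 members (12.5%) differed, against 12.5% of all genes. Psmb8, Psmb9 and Psme3 were higher, and Psmb5, Psmd6 and Psmg3 were lower. Without female sham replicate 7, which was the highest of its group in 25 of the 31 subunits, the median of the 26S subunits was -0.0051 and 17 were lower. In that fit 2 members had an unadjusted p under 0.05, against 14.4% of all genes, and none of the 31 subunits did.

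The difference between the sexes in the response to SMC was tested by the interaction term. All 31 26S subunits had a more negative fold change in males than in females, with a median difference of -0.21, but no member and 0% of all genes passed the FDR threshold in edgeR. DESeq2 and voom also called none of the members. At an unadjusted p under 0.05 there were 4 members (Psma1, Psma2, Psma3 and Psmd12), or 8.33%, against 5.13% of all genes. Without male sham replicate 4 the median difference was -0.12, 29 of the 31 subunits had the more negative value in males, and 2 members had an unadjusted p under 0.05, against 6.91% of all genes. Without female sham replicate 7 there were 16 such members, against 6.61% of all genes, and the median was -0.28. With the slow fiber score as a covariate there were 19, against 7.34% of all genes, with a median of -0.25, and with both low slow fiber libraries left out there were 8, against 7.71%, with a median of -0.18. Leaving out male sham replicate 5 gave 15, against 6.19% of all genes, and leaving out female sham replicate 12, male sham replicate 1, male SMC replicate 17 or female SMC replicate 22 gave 8 each, against 4.46% to 5.30% of all genes. The tests therefore did not show that the response differed between the sexes.

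Averaged over the sexes, 3 members were lower in SMC past the FDR threshold, 1 in each of 3 subcomplexes, namely Psma5 of the alpha ring, the catalytic subunit Psmb5 and the ATPase Psmc6. The 3 genes are 6.25% of the members, against 2.36% of all genes called in this comparison. At an unadjusted p under 0.05, 18 members (17 of them 26S subunits and the chaperone Psmg3) were lower and Psmb9 was higher, or 39.6% of the members against 17.5% of all genes. All 31 26S subunits had a negative average, with a median of -0.16. Psmb5 and Psmc6 stayed called in each of the 24 fits that left out 1 library, whereas Psma5 stayed called in 11 of them. Without male sham replicate 4 the same 3 genes and Psma7 were called among 309 genes, and 30 of the 31 subunits were lower with a median of -0.11. Without both low slow fiber libraries the median was -0.075, and with the slow fiber score as a covariate it was -0.066. In each fit 28 of the 31 were lower. The members called were 4 among 526 genes without both libraries, and 2 among 732 genes with the covariate. Leaving out male sham replicate 5 gave 11 calls among 495 genes, where 388 genes were called with all libraries.

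**Figure D2:**
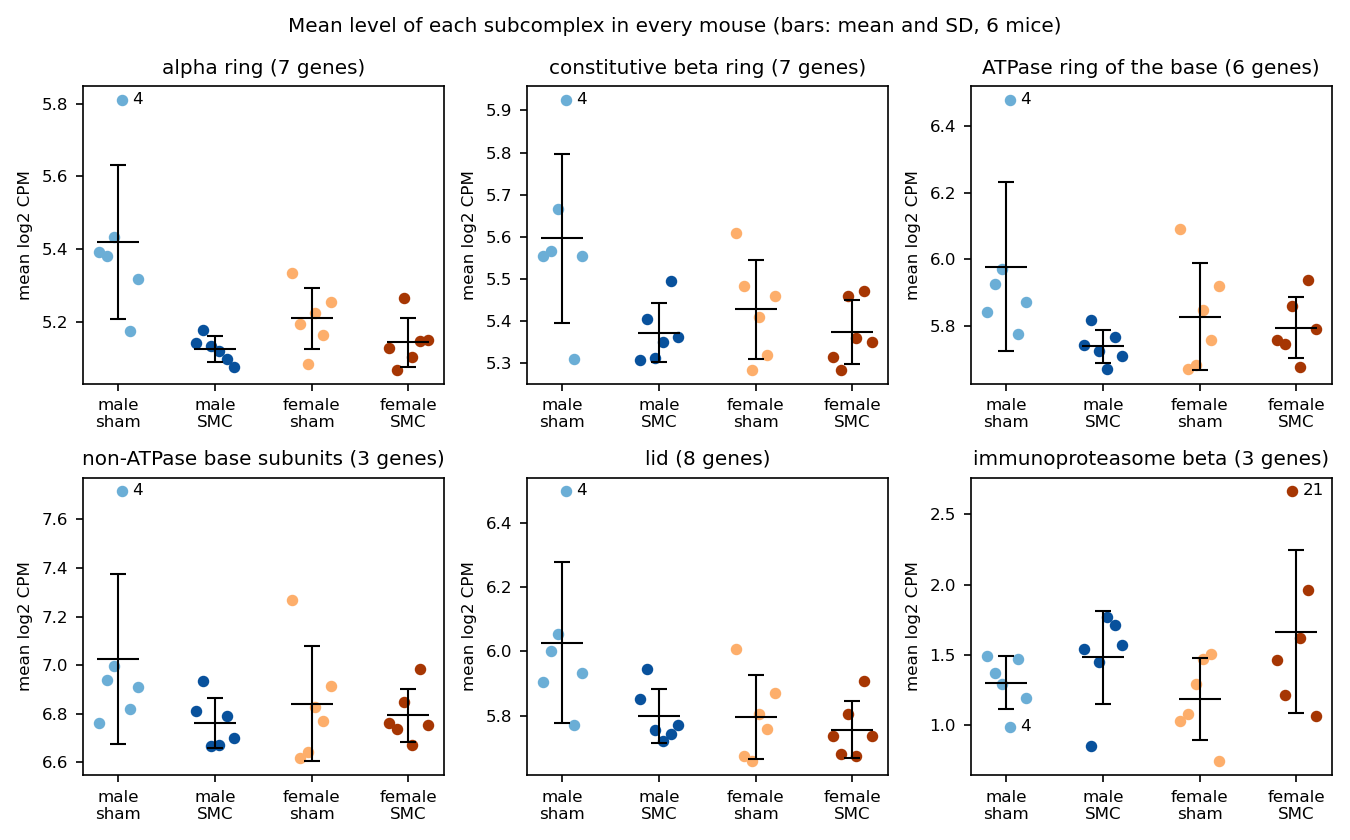
Mean log2 CPM over the tested genes of each subcomplex in every mouse, by group, with the mean and SD of 6 mice. Male sham replicate 4 (marked 4) was the highest mouse in the 5 subcomplexes of the 26S proteasome, and female SMC replicate 21 (marked 21) was the highest in the immunoproteasome subunits.

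Of the 5 subcomplexes of the 26S proteasome, the alpha ring showed the largest difference in males. Its 7 tested genes had fold changes from -0.47 to -0.18, and all 7 had an unadjusted p under 0.05, as they did in the average over the sexes. The shares among all genes were 11% in males and 17.5% in the average. The mean log2 CPM of the ring was 5.42 ± 0.21 (SD, n = 6) in male sham and 5.13 ± 0.036 in male SMC, and 5.21 ± 0.085 and 5.15 ± 0.067 in the female groups. The difference of these means in males was -0.29, and -0.22 without replicate 4. Psma5 ranged from 18.5 to 37.9 CPM in male sham (median 21.8) and from 14.5 to 20.2 CPM in male SMC (median 16.9). It ranged from 16.6 to 22.02 CPM in female sham (median 19.5) and from 15.9 to 18.5 CPM in female SMC (median 17). Male sham replicate 4 was far above every other mouse, and the ranges of SMC and sham overlapped in both sexes. The log2 fold change of Psma5 was -0.33 ± 0.088 over both sexes (edgeR FDR 0.0442), -0.47 ± 0.12 in males (FDR 0.156) and -0.20 ± 0.12 in females (FDR 0.554). Without male sham replicate 4, its male fold change was -0.30 and the average over the sexes was -0.25, which edgeR still called.

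Psma1 was 1 of 3 members whose male groups did not overlap, with 37.7 to 55.8 CPM in sham (median 42.7) and 31.1 to 37.3 CPM in SMC (median 35.9). The other 2 were Psmc6 and Psmd11, and 0.902% of all genes showed no overlap in males. In females Psma1 ranged from 36.6 to 40.5 CPM in sham (median 37.4) and from 34.7 to 42.2 CPM in SMC (median 38.0). All male SMC mice thus lay under all male sham mice, while the female groups covered the same range. The fold change was -0.32 ± 0.077 in males (edgeR FDR 0.113) and 0.0018 ± 0.077 in females (FDR 0.997), and the interaction had an unadjusted p of 0.00688 (FDR 0.926). Psma2 had the smallest FDR of the members in males, 0.0929, with a fold change of -0.29 ± 0.066. Psma7 differed by -0.43 ± 0.11 in males (FDR 0.147) and by -0.13 ± 0.11 in females, and its male value was -0.28 without replicate 4. Psma3, Psma4 and Psma6 had smaller male differences of -0.21, -0.27 and -0.18. 

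The other genes of the alpha ring were spread as follows. Psma2, a subunit whose tail helps to close the gate, ranged over 30.8 to 42.7 CPM in male sham (median 36.6) and 28.4 to 31.3 in male SMC (29.4), and over 30.1 to 34.4 in female sham (31.01) and 29.7 to 33.4 in female SMC (30.9). Psma3 had a median of 75.1 CPM in male sham (70.4 to 90.3) against 66.4 in male SMC (60.3 to 72.4), and of 66.95 in female sham (61.2 to 73.5) against 68.6 in female SMC (61.3 to 71.3). Psma4, likewise a gate subunit, ranged over 33.1 to 52.6 CPM in male sham (median 41.1) and 32.4 to 38.1 in male SMC (34.3), and over 34.04 to 40.7 in female sham (36.2) and 29.5 to 40.5 in female SMC (35.3). In males the 3 SMC medians lay below sham, in females that of Psma3 lay above it, and all ranges overlapped. Psma6 had a median of 55.7 CPM in male sham (47.3 to 64.3) against 49.1 in male SMC (46.3 to 52.3), and of 50.3 in female sham (42.04 to 56.2) against 46.8 in female SMC (44.6 to 54.9). Psma7 ranged over 31.1 to 63.3 CPM in male sham (median 38.4) and 29.8 to 32.4 in male SMC (30.9), and over 28.7 to 37.5 in female sham (31.2) and 28.2 to 31.8 in female SMC (29.3). SMC medians of both genes were the lower ones in either sex, again with overlap.

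The constitutive beta ring holds the chymotrypsin-like (Psmb5), caspase-like (Psmb6) and trypsin-like (Psmb7) active sites. All 7 genes were lower in SMC males, from -0.30 (Psmb4) to -0.14 (Psmb6), and 5 had an unadjusted p under 0.05, against 11% of all genes. In females 4 were lower and 3 higher. Psmb5 ranged from 35.0 to 47.7 CPM in male sham (median 41.3), from 30.9 to 39.6 CPM in male SMC (median 34.0), from 32.5 to 42.2 CPM in female sham (median 37.2) and from 30.1 to 36.1 CPM in female SMC (median 32.6). SMC mice were the lower ones in both sexes, with overlap. Its fold change was -0.24 ± 0.056 over both sexes (edgeR FDR 0.0261), -0.29 ± 0.080 in males (FDR 0.170) and -0.18 ± 0.080 in females (FDR 0.336, unadjusted p 0.0313). Of the 3 catalytic genes, Psmb7 differed by -0.22 ± 0.089 in males and Psmb6 by -0.14 ± 0.086, with unadjusted p of 0.0231 and 0.114. Psmb1, Psmb3 and Psmb4, which carry no active site, differed by -0.29, -0.22 and -0.30 in males, and Psmb2 by -0.18. When male sham replicate 4 was left out, the male values of Psmb2, Psmb6 and Psmb7 were -0.10, -0.082 and -0.14.

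Psmb6, the caspase-like subunit, ranged over 43.7 to 65.4 CPM in male sham (median 51.2) and 44.4 to 58.1 in male SMC (46.4), and over 44.5 to 55.7 in female sham (50.3) and 47.5 to 54.8 in female SMC (49.7). Psmb7, the trypsin-like subunit, had a median of 96.9 CPM in male sham (85.6 to 128.2) against 84.2 in male SMC (81.2 to 92.1), and of 89.2 in female sham (79.4 to 113.2) against 84.7 in female SMC (78.97 to 89.9). Psmb1, a structural subunit of the ring, ranged over 41.2 to 57.8 CPM in male sham (median 44.4) and 34.1 to 41.9 in male SMC (37.8), and over 36.5 to 44.2 in female sham (39.4) and 35.1 to 41.2 in female SMC (37.8). For these 3 genes the SMC median was the lower one in each sex, with overlap. Psmb2, also without an active site, had a median of 29.8 CPM in male sham (23.4 to 40.3) against 26.5 in male SMC (26.1 to 28.4), and of 25.7 in female sham (23.2 to 30.2) against 28.2 in female SMC (23.7 to 29.5). Psmb3 ranged over 29.1 to 47.9 CPM in male sham (median 38.5) and 29.6 to 36.8 in male SMC (32.6), and over 30.1 to 36.3 in female sham (34.1) and 30.9 to 39.01 in female SMC (34.2). Psmb4 had a median of 53 CPM in male sham (41.3 to 68.3) against 43.7 in male SMC (40.4 to 46.5), and of 44.6 in female sham (42.1 to 51.2) against 41.7 in female SMC (38.6 to 45.4). Male medians of these 3 genes were lower in SMC, whereas Psmb2 and Psmb3 had the higher median in SMC females, and the groups overlapped.

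**Figure D3:**
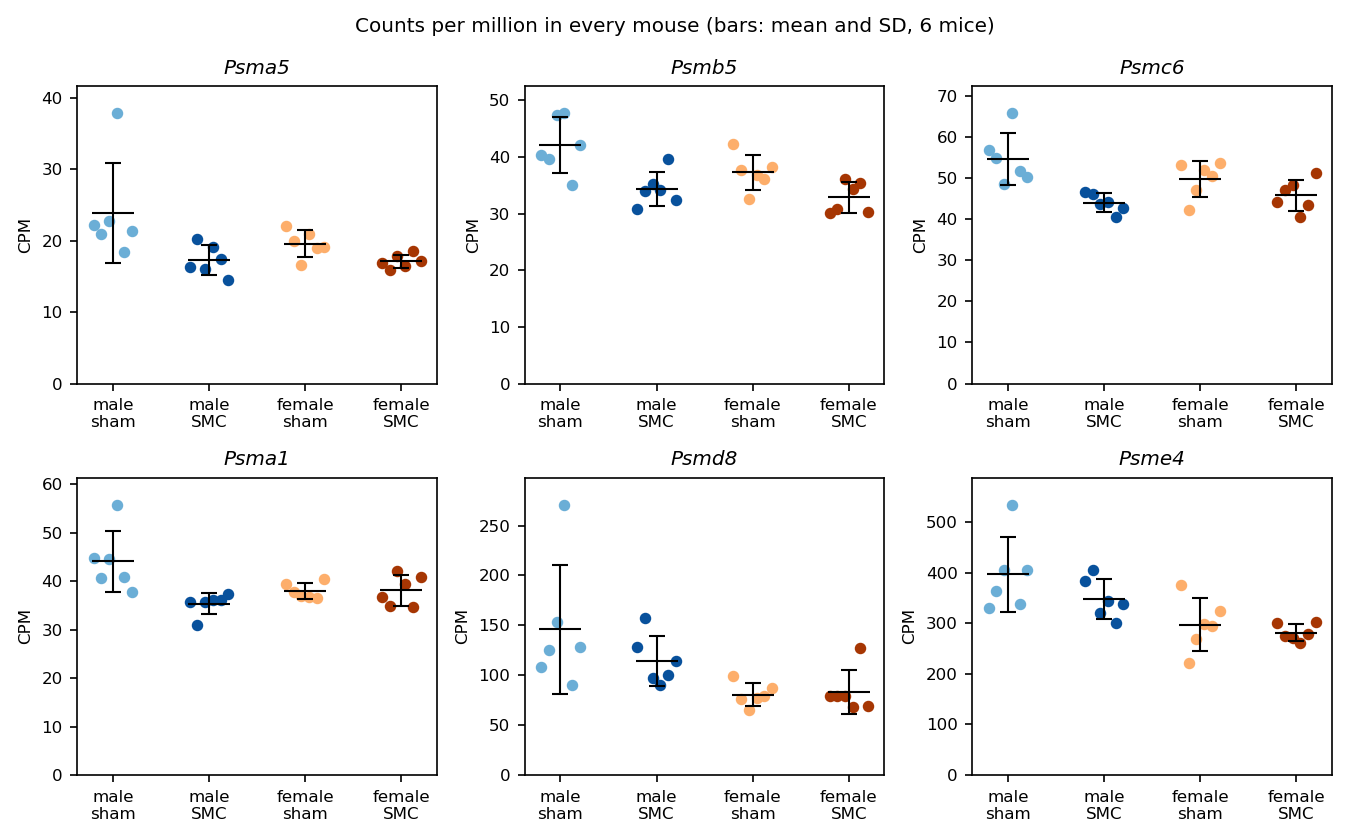
CPM of Psma5, Psmb5, Psmc6, Psma1, Psmd8 and Psme4 in every mouse, by group, with the mean and SD of 6 mice and axes from 0. Male SMC mice lie below all male sham mice for Psma1 and Psmc6, and males lie above most females for Psmd8 and Psme4.

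In the base, the 6 ATPases form the ring that unfolds the substrate and opens the gate. All 6 were lower in SMC males, from -0.36 (Psmc2) to -0.17 (Psmc4), and 4 had an unadjusted p under 0.05, against 11% of all genes. In females 3 were lower and 3 higher. Psmc6 ranged from 48.6 to 65.9 CPM in male sham (median 53.3) and from 40.7 to 46.8 CPM in male SMC (median 44.0). In females it ranged from 42.4 to 53.6 CPM in sham (median 51.4) and from 40.6 to 51.2 CPM in SMC (median 45.7). The male groups did not overlap and the female groups did. Its fold change was -0.22 ± 0.053 over both sexes (edgeR FDR 0.0295), -0.31 ± 0.075 in males (FDR 0.113) and -0.12 ± 0.075 in females (FDR 0.542). Both DESeq2 and voom called Psmc6 in males, with FDR 0.0188 in DESeq2, and without replicate 4 its male fold change was -0.26. Psmc1 and Psmc3 differed by -0.24 and -0.26 in males and by 0.0048 and 0.044 in females, and Psmc5 by -0.21 and -0.11. When male sham replicate 4 was left out, the male values were -0.11 (Psmc1), -0.24 (Psmc2), -0.13 (Psmc3), -0.073 (Psmc4) and -0.090 (Psmc5).

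Psmc1, an ATPase whose tail docks into the core, ranged over 53.6 to 96.1 CPM in male sham (median 60.2) and 51.1 to 58.2 in male SMC (56.05), and over 46.9 to 68 in female sham (53.9) and 51.6 to 60.8 in female SMC (54.7). Psmc2 had a median of 65.6 CPM in male sham (57.6 to 101.8) against 53.1 in male SMC (51.98 to 59.6), and of 61.5 in female sham (52.99 to 78.4) against 55.5 in female SMC (53.9 to 62.6). Psmc3, an ATPase that likewise docks into the core, ranged over 91.3 to 159.7 CPM in male sham (median 100.4) and 82.2 to 104.9 in male SMC (89.3), and over 85.8 to 117.9 in female sham (94.01) and 86.8 to 119.3 in female SMC (97.4). Males had lower SMC medians in the 3 genes, whereas in females Psmc2 was lower and Psmc1 and Psmc3 were higher by median, and the groups overlapped. Psmc4 had a median of 48.9 CPM in male sham (43.5 to 70.4) against 45.05 in male SMC (42.8 to 49.98), and of 43.3 in female sham (41.2 to 48.99) against 46.6 in female SMC (42.98 to 53.4). Psmc5 ranged over 41.2 to 69.2 CPM in male sham (median 44.4) and 38.9 to 45.3 in male SMC (41.5), and over 38.5 to 60.7 in female sham (45.9) and 41.2 to 50.1 in female SMC (41.7). Both had the lower SMC median in males, while in females that of Psmc4 was higher and that of Psmc5 lower, with overlap.

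Among the subcomplexes of the 26S proteasome, leaving out male sham replicate 4 moved the 3 other subunits of the base most. Psmd4, a ubiquitin receptor, was at 172.8 CPM in that mouse and at 72.9 to 85.9 CPM in the other male sham mice. The scaffold subunits Psmd1 and Psmd2 were at 184.2 and 291.5 CPM there, and at most at 127.6 and 201.1 CPM in the other male sham mice. Their male fold changes were -0.37 (Psmd4), -0.28 (Psmd1) and -0.25 (Psmd2), and -0.12, -0.16 and -0.11 without that mouse. The mean log2 CPM of the 3 genes differed by -0.26 between the male groups, and by -0.12 without replicate 4. Psmd1, a scaffold subunit, ranged over 109.2 to 184.2 CPM in male sham (median 119.5) and 98.3 to 119.7 in male SMC (101.8), and over 97.9 to 157.4 in female sham (109.9) and 100.4 to 124.2 in female SMC (112.1). Psmd2, the ubiquitin-carrier dock, had a median of 181.4 CPM in male sham (159.1 to 291.5) against 159.6 in male SMC (151.2 to 186.0), and of 162.5 in female sham (134.4 to 222.9) against 155.7 in female SMC (152.3 to 172.5). Psmd4, the ubiquitin receptor, ranged over 72.9 to 172.8 CPM in male sham (median 80.7) and 64 to 82.4 in male SMC (73.8), and over 64.5 to 104.2 in female sham (77.3) and 68.4 to 94.8 in female SMC (73.96). Medians in SMC were lower in males for the 3 genes and in females for Psmd2 and Psmd4, with overlap.

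In the lid, which removes the ubiquitin chain, all 8 genes were lower in SMC males, from -0.35 (Psmd8) to -0.20 (Psmd13). Of these, 6 had an unadjusted p under 0.05, against 11% of all genes. In females 4 were lower and 4 higher. Psmd11, a scaffold subunit of the lid, ranged from 106.7 to 191.6 CPM in male sham (median 112.2) and from 95.4 to 106.3 CPM in male SMC (median 103.5). In females the ranges were 94.3 to 119.5 CPM in sham (median 103.4) and 98.0 to 116.2 CPM in SMC (median 102.4). The male groups were separated by a gap smaller than 1 CPM. The male fold change was -0.29 ± 0.11 (edgeR FDR 0.305), and -0.14 without replicate 4. Psmd13 alone of the 31 subunits was not highest in replicate 4, with 35.1 CPM against up to 37.2 CPM in the other male sham mice, and its male fold change was -0.20 ± 0.062 (unadjusted p 0.00334). Psmd14, the deubiquitinase, differed by -0.22 ± 0.071 in males and by -0.079 ± 0.071 in females. Psmd6 was lower by similar amounts in both sexes, -0.21 ± 0.095 in males and -0.21 ± 0.095 in females. Without female sham replicate 7, its female unadjusted p was no longer under 0.05. Psmd8 differed by -0.35 ± 0.20 in males, and by -0.092 without replicate 4. Psmd12 differed by -0.25 ± 0.086 in males and by 0.032 ± 0.086 in females. Psmd3 and Psmd7 differed by -0.22 and -0.26 in males. When replicate 4 was left out, the male values were -0.078 (Psmd3), -0.13 (Psmd6) and -0.16 (Psmd7).

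Psmd6, a scaffold subunit of the lid, ranged over 52.5 to 81.6 CPM in male sham (median 60.6) and 45.2 to 61.8 in male SMC (52.99), and over 52.3 to 70.6 in female sham (56.5) and 47.4 to 55.2 in female SMC (50.6). Psmd7, the inactive partner of Psmd14, had a median of 64.98 CPM in male sham (60.02 to 95.4) against 57.9 in male SMC (55.3 to 64.5), and of 63.1 in female sham (53.7 to 71.4) against 58.8 in female SMC (51.4 to 62.95). Psmd12, a scaffold subunit, ranged over 48.3 to 72.8 CPM in male sham (median 52.3) and 43.6 to 49.3 in male SMC (46.95), and over 39.2 to 54.02 in female sham (47.6) and 46.01 to 52.5 in female SMC (48.05). All 3 had a lower SMC median in males, and Psmd12 had a higher one in females, with overlap in both sexes. Psmd13, another scaffold subunit, had a median of 34.98 CPM in male sham (30.6 to 37.2) against 29.8 in male SMC (27.3 to 31.96), and of 31.01 in female sham (29.1 to 35.02) against 30.1 in female SMC (28.8 to 33.5). Psmd14, the deubiquitinase, ranged over 23.1 to 32.4 CPM in male sham (median 27.6) and 20.3 to 26.2 in male SMC (23.96), and over 23 to 26.8 in female sham (23.9) and 22.6 to 24.1 in female SMC (23.1). Psmd3, a scaffold subunit as well, had a median of 81.2 CPM in male sham (75 to 133.4) against 76.8 in male SMC (70.9 to 84.2), and of 78.3 in female sham (71.5 to 96.8) against 81.8 in female SMC (74.9 to 93.2). These 3 genes had the lower median in SMC in each sex, except Psmd3 in females, and the ranges overlapped.

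**Figure D4:**
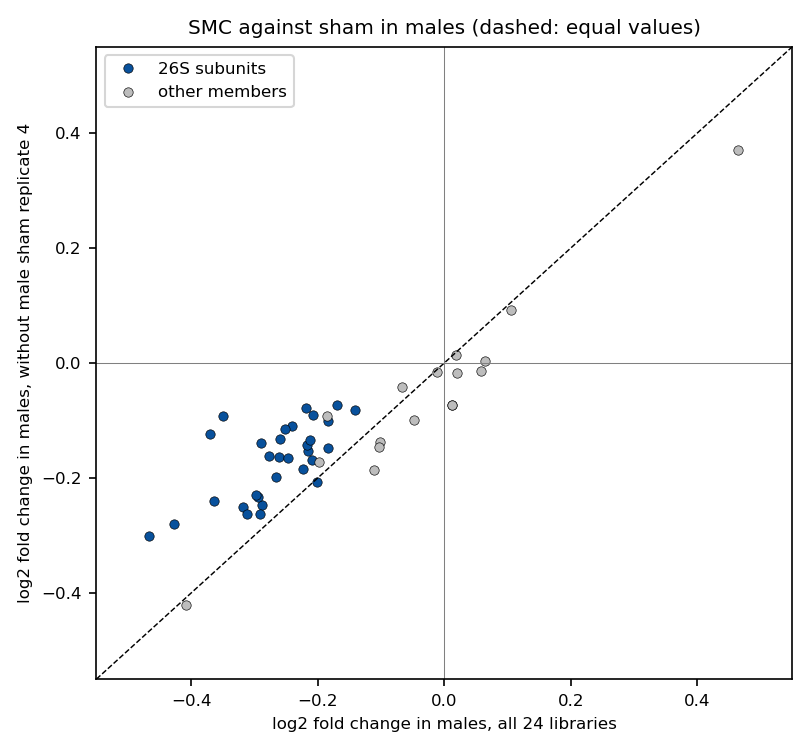
Male log2 fold change of each of the 48 tested members without male sham replicate 4 (vertical axis) against the value from all 24 libraries (horizontal axis). The 31 subunits of the 26S proteasome (blue) all stay below 0, and all but Psmd13 lie above the dashed line of equal values, with a median of -0.16 in place of -0.26.

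Across mice the constitutive subunits varied together. Male sham replicate 4 was the highest of all 24 mice in 30 of the 31 subunits. With the group means removed, the median Pearson correlation of log2 CPM between pairs of the 31 subunits was 0.687 over 24 mice (Spearman 0.554), and 0.512 (Spearman 0.503) over 23 mice without replicate 4. The median Pearson correlation of these subunits with all tested genes that are no members was -0.0194. These pairs share libraries and scaling, and the values are descriptions. The immunoproteasome subunits had a median Pearson correlation of -0.148 with the 31 subunits and of 0.443 among themselves. Without replicate 4 these values were -0.00897 and 0.49, so the negative value rested on that mouse.

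Psmb5 and Psmc6 hold the letters of an antioxidant response element in the promoter, and Psma5 does not. The promoters run from 250 bases before to 50 after the RefSeq start (GRCm38.p6, a build other than that of the counts), and 42 of the 50 members had one. Each strand was searched for TGACNNNGC (antioxidant response element, the type bound by Nfe2l1 and Nfe2l2), CCAAT (NF-Y box), CCGGAAGT (ETS site), GAAANNGAA (interferon-stimulated response element core) and TTCNNNGAA (interferon gamma activated site). Among the 25 promoters of 26S subunits, TGACNNNGC was found in 4 (16%: Psmb5, Psmb6, Psmc6 and Psmd12), against 12.5% of 27025 promoters of all genes and 14.8% of 10965 promoters of tested genes. Outside them, Psme4 and the chaperone Psmd9 held it. CCAAT was found in 10 of the 25 (40%) against 37.9% of all and 38.1% of tested genes, GAAANNGAA in 3 (12%) against 8.57% and 7.09%, and TTCNNNGAA in 1 (4%) against 8.47% and 6.75%. CCGGAAGT was found in 5 (20%) against 4% of all promoters and 7.93% of those of tested genes. GAAANNGAA and TTCNNNGAA can share letters. The promoters below are shown because the first 3 belong to the genes called lower over both sexes, the fourth to the activator Psme4 that differed between the sexes, and the last to Psmb8 of the immunoproteasome. Capitals mark TGACNNNGC on either strand in the first 4, where Psma5 has none, and TTCNNNGAA in Psmb8. The intervals are chr3:108256676-108256975 (plus strand) for Psma5, chr14:54617946-54618245 (minus) for Psmb5, chr14:45329574-45329873 (plus) for Psmc6, chr11:30771525-30771824 (plus) for Psme4 and chr17:34197945-34198244 (plus) for Psmb8.
Psma5: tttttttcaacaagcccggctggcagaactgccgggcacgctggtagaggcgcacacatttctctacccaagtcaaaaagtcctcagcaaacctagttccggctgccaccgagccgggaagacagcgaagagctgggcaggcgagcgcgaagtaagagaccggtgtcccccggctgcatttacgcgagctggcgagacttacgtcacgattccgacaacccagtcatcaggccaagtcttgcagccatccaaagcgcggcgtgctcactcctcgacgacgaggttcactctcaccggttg
Psmb5: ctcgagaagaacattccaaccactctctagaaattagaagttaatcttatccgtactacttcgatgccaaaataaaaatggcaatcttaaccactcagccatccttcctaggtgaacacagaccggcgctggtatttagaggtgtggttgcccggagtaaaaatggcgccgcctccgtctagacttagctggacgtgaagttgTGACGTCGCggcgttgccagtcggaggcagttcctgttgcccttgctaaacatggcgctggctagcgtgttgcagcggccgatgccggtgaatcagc
Psmc6: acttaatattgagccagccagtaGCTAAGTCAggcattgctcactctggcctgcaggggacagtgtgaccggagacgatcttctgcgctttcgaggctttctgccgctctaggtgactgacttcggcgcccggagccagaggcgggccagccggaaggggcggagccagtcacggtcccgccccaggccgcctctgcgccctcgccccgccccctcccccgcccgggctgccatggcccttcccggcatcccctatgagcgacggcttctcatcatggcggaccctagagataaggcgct
Psme4: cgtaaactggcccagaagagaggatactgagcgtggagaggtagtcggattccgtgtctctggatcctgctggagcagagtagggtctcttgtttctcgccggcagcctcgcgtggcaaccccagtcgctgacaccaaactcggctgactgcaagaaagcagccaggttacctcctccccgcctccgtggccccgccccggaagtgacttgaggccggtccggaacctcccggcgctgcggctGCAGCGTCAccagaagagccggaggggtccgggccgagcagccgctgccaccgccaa
Psmb8: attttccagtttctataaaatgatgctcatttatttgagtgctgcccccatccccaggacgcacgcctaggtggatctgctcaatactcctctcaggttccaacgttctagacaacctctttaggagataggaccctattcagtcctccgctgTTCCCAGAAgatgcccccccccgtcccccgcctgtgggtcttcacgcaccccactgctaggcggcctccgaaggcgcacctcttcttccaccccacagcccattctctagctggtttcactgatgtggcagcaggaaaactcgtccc
The marked letters begin 47 bases before the start in Psmb5, 227 in Psmc6, 7 in Psme4 and 97 in Psmb8. A match of letters is no measured site.

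The estimates for the immunoproteasome subunits lay in the other direction. Psmb8, Psmb9 and Psmb10 replace Psmb5, Psmb6 and Psmb7 in the core and favor peptides for MHC class I. All 3 had a higher mean in SMC in both sexes, with log2 fold changes of 0.62 ± 0.30, 0.92 ± 0.32 and 0.24 ± 0.14 in females and of 0.11 ± 0.30, 0.47 ± 0.32 and 0.012 ± 0.14 in males, and none passed the FDR threshold. Without male sham replicate 4 the male value of Psmb10 was -0.074. Psmb9 ranged from 0.71 to 1.79 CPM in female sham (median 1.05) and from 1.19 to 5.10 CPM in female SMC (median 1.62). In males it ranged from 0.91 to 1.94 CPM in sham (median 1.31) and from 1.07 to 2.44 CPM in SMC (median 1.94). Both pairs of groups overlapped. Psmb9 had an unadjusted p of 0.00818 in females (edgeR FDR 0.199) and a fold change of 0.69 ± 0.22 over both sexes (FDR 0.0991), a comparison in which DESeq2 called it.

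Psmb8 ranged from 1.49 to 2.64 CPM in female sham (median 2.24), from 1.503 to 7.87 CPM in female SMC (median 2.33), from 1.90 to 3.07 CPM in male sham (median 2.16) and from 1.42 to 3.25 CPM in male SMC (median 2.52). Female SMC replicate 21 held the highest level of both Psmb8 and Psmb9, and the range of the other mice of its group overlapped with sham. Without that mouse, the female fold changes were 0.18 (Psmb8, unadjusted p 0.427), 0.51 (Psmb9, unadjusted p 0.0659) and 0.21 (Psmb10). Psmb10 ranged from 3.79 to 5.15 CPM in female sham (median 4.72) and from 4.21 to 6.21 CPM in female SMC (median 5.83), and from 3.39 to 5.79 CPM (median 4.56) and 3.39 to 5.75 CPM (median 4.7) in male sham and SMC. Per kilobase, Psmb8 stood at 1.55 ± 0.44% of Psmb5 in female sham and at 2.60 ± 1.65% in female SMC (SD, n = 6), and Psmb9 at 1.23 ± 0.557% and 2.22 ± 1.37% of Psmb6. Psmb10 stood at 10.4 ± 1.97% and 12.9 ± 2.09% of Psmb7. The constitutive genes thus outnumbered their partners in every mouse.

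**Figure D5:**
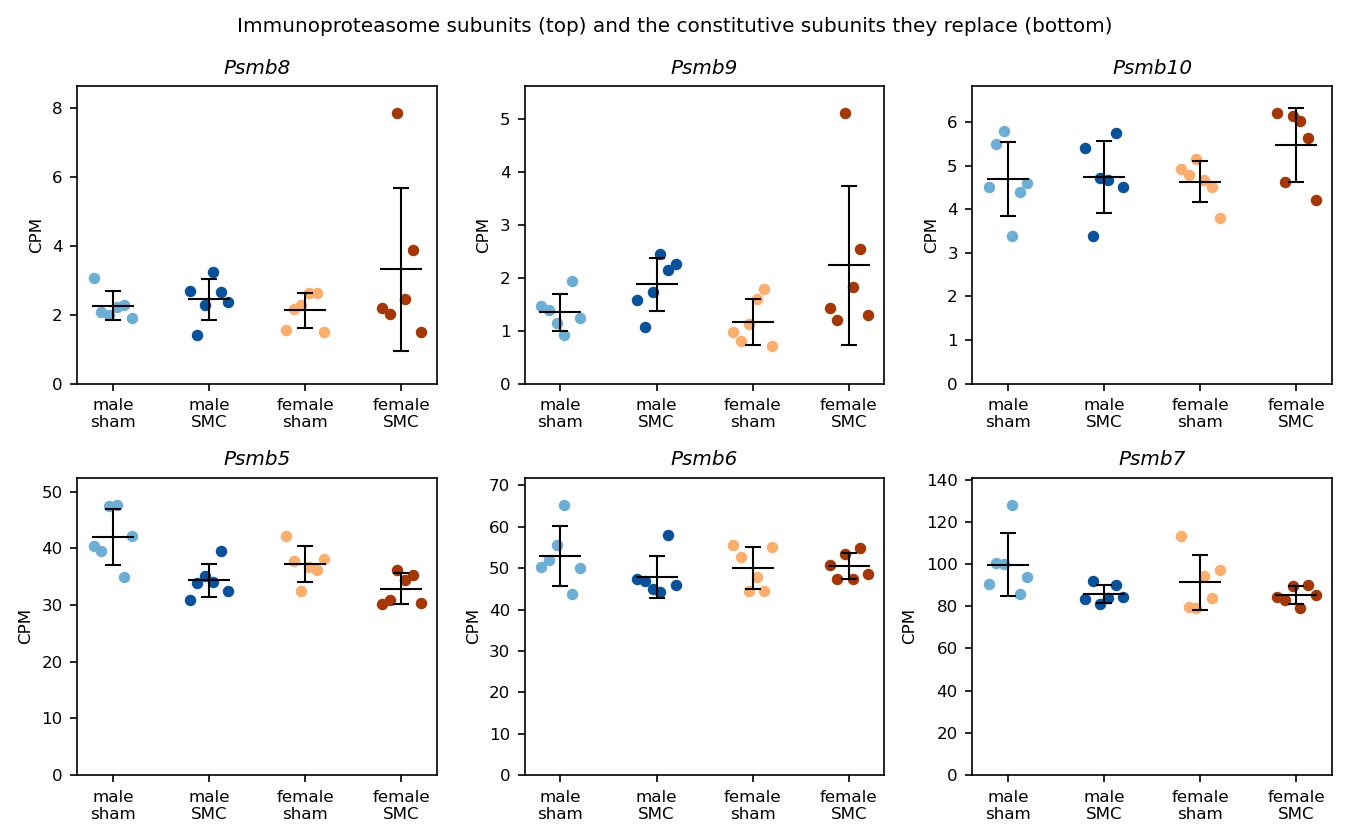
CPM of the immunoproteasome subunits Psmb8, Psmb9 and Psmb10 (top row) and of Psmb5, Psmb6 and Psmb7, which they replace (bottom row), in every mouse, with the mean and SD of 6 mice and axes from 0. The female SMC mouse far above its group for Psmb8 (7.87 CPM) and Psmb9 (5.10 CPM) is replicate 21.

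Psmb9, Tap1, Psmb8 and Tap2 follow each other on chromosome 17 in RefSeq, in the MHC region, where Tap1 and Tap2 form the peptide transporter. The list of 10 MHC class I loading and interferon genes had 10 of 10 higher in males and 9 of 10 in females, with medians of 0.19 and 0.46. At an unadjusted p under 0.05 there were 1 and 4 genes, against 11% and 12.5% of all genes. Tap1 differed by 1.06 in females and by 0.71 in males. Without female SMC replicate 21 the female value of Tap1 was 0.35. The list summed to 543.5 CPM in female SMC replicate 21 and to 218.0 to 293.3 CPM in the other female SMC mice. It summed to 180.0 to 279.9 CPM in female sham, 201.8 to 230.2 CPM in male sham and 201.8 to 267.8 CPM in male SMC. Macrophage markers (8 of 8 tested) were lower in SMC in 8 of 8 in males and 5 of 8 in females, and summed to 75.1 to 106.2 CPM in female SMC and 43.7 to 187.3 CPM in female sham. Of the 6 endothelial markers, 5 were higher in SMC in each sex and 6 in the average over the sexes. Their medians were 0.065 in males and 0.13 in females. The unadjusted p was under 0.05 for 2 of them in males and for 2 in the average, against 11% and 17.5% of all genes. The endothelial markers summed to 278.7 to 362.1 CPM in male sham, 277.6 to 429.9 CPM in male SMC, 197.7 to 354.1 CPM in female sham and 277.7 to 376.2 CPM in female SMC. None of the 6 T cell or 4 B cell markers passed the filter on low counts. T cell markers summed to at most 1.36 CPM and B cell markers to at most 0.836 CPM per mouse, and none was at 0 in all 24 mice. The part of other cell types in the immunoproteasome values was not tested.

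Among the activators and the inhibitor, no member was called in any SMC comparison, and Psme3 alone had an unadjusted p under 0.05 within a sex. Psme1 and Psme2, which form the interferon-responsive PA28 cap, differed by 0.22 ± 0.13 and -0.067 ± 0.088 in females and by 0.012 ± 0.13 and -0.047 ± 0.088 in males. Psme2b is a near copy of Psme2, and reads of the 2 genes cannot be told apart with certainty. The fold change of Psme3, the nuclear PA28 gamma cap, was 0.15 ± 0.059 in females (edgeR unadjusted p 0.0204, FDR 0.282) and 0.018 ± 0.059 in males. Psmf1, the inhibitor PI31, differed by -0.067 ± 0.074 in males and by 0.090 ± 0.074 in females. When male sham replicate 4 was left out, the male values were -0.073 (Psme1), -0.099 (Psme2), 0.0032 (Psme2b), -0.093 (Psme4, in place of -0.19) and -0.042 (Psmf1). Psme1 ranged over 11.9 to 19.9 CPM in male sham (median 16.4) and 12.8 to 18.8 in male SMC (16.9), and over 11.7 to 16.98 in female sham (14.5) and 12.99 to 21.2 in female SMC (16.4). Psme2 had a median of 9.41 CPM in male sham (8.15 to 11.02) against 9.34 in male SMC (8.09 to 10.2), and of 8.98 in female sham (8.04 to 9.84) against 8.46 in female SMC (7.55 to 10.1). Psme2b ranged over 0.63 to 1.55 CPM in male sham (median 0.88) and 0.52 to 1.55 in male SMC (1.13), and over 0.82 to 1.19 in female sham (0.88) and 0.69 to 1.499 in female SMC (1.03). Psme2 had the lower and the other 2 genes the higher SMC median in both sexes, with overlap. Psme3 had a median of 44.95 CPM in male sham (40.9 to 47.6) against 45.6 in male SMC (40.98 to 47.2), and of 42.2 in female sham (37.3 to 45.9) against 47.2 in female SMC (42.9 to 48.5). Psmf1 ranged over 11.2 to 14.2 CPM in male sham (median 12.8) and 10.9 to 13.2 in male SMC (11.99), and over 11.1 to 14.3 in female sham (11.7) and 11.4 to 13.6 in female SMC (13.2). Medians of Psme3 were higher in SMC in both sexes, those of Psmf1 lower in males and higher in females, and the ranges overlapped.

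Of the 7 assembly chaperones, 5 were lower in each sex, with medians of -0.10 in males and -0.025 in females. The fold change of Psmg3, a chaperone of core assembly, was -0.39 ± 0.17 in females (edgeR unadjusted p 0.0283, FDR 0.323) and -0.20 ± 0.17 in males. Psmg1, Psmg2 and Psmg4, also chaperones of the core, differed by 0.058, -0.10 and -0.11 in males. The base chaperones Psmd5, Psmd9 and Psmd10 differed by 0.021, -0.012 and -0.10 in males. When male sham replicate 4 was left out, the male values were -0.017 (Psmd5), -0.015 (Psmg1) and -0.19 (Psmg4). Psmc3ip, the gene that is no subunit, differed by -0.41 ± 0.22 in males. Psmd5, a chaperone of the base, ranged over 12.9 to 15.5 CPM in male sham (median 14.1) and 12.8 to 16.6 in male SMC (14.1), and over 11.5 to 14.2 in female sham (12.7) and 11.97 to 13.9 in female SMC (13.3). Psmd9, also of the base, had a median of 12.02 CPM in male sham (10.8 to 12.6) against 11.6 in male SMC (9.902 to 14.01), and of 12.8 in female sham (12.2 to 14.2) against 12.1 in female SMC (11.6 to 13.6). Psmg1, a chaperone of alpha ring assembly, ranged over 3.35 to 5.51 CPM in male sham (median 4.33) and 4.07 to 4.802 in male SMC (4.55), and over 4.099 to 4.72 in female sham (4.41) and 3.73 to 4.83 in female SMC (4.31). The Psmd9 median was lower in SMC in both sexes, that of Psmg1 higher in males and lower in females, and that of Psmd5 lower by less than 1 CPM in males and higher in females, with overlap. Psmg3 had a median of 2.25 CPM in male sham (1.31 to 2.34) against 1.75 in male SMC (1.35 to 2.101), and of 2.06 in female sham (1.49 to 2.29) against 1.52 in female SMC (1.17 to 1.92). Psmg4, the partner of Psmg3, ranged over 1.45 to 2.34 CPM in male sham (median 1.82) and 1.296 to 2.004 in male SMC (1.803), and over 0.97 to 1.83 in female sham (1.45) and 0.84 to 1.82 in female SMC (1.56). Psmc3ip had a median of 0.74 CPM in male sham (0.63 to 0.91) against 0.53 in male SMC (0.33 to 0.87), and of 0.72 in female sham (0.54 to 0.95) against 0.61 in female SMC (0.42 to 0.9043). Lower SMC medians were found in males for these 3 genes, and in females for Psmg3 and Psmc3ip, with overlap. Psmd10, a further chaperone of the base, ranged over 2.85 to 4.39 CPM in male sham (median 3.55) and 2.54 to 4.05 in male SMC (3.45), and over 2.77 to 3.76 in female sham (3.21) and 2.75 to 3.69 in female SMC (2.92). Psmg2, the partner of Psmg1, had a median of 7.39 CPM in male sham (6.41 to 7.71) against 6.83 in male SMC (6.104 to 7.16), and of 6.799 in female sham (6.101 to 7.91) against 6.99 in female SMC (6.13 to 7.18). The median of Psmd10 was lower in SMC in both sexes, and that of Psmg2 in males, with overlap.

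Males and females differed in 2 members. Averaged over housing, Psmd8 of the lid was higher in males by 0.66 ± 0.14 (edgeR FDR 0.00818) and Psme4 by 0.36 ± 0.082 (FDR 0.00973). These are 4.17% of the members, where 4.93% of all genes were called. At an unadjusted p under 0.05, 8 members differed (16.7%), against 19.3% of all genes, with 7 higher in males. Psmd8 ranged from 90.02 to 271.0 CPM in male sham (median 126.8), from 89.9 to 157.5 CPM in male SMC (median 107.3), from 65.3 to 99.4 CPM in female sham (median 77.9) and from 67.9 to 127.3 CPM in female SMC (median 78.8). Male mice were mostly the higher ones, with overlap, and the highest female value was that of female SMC replicate 23. Without male sham replicate 4, the highest male, the difference was 0.52. Psme4, which caps the core independently of ubiquitin, ranged from 330.7 to 534.9 CPM in male sham (median 384.6), from 299.9 to 406.0 CPM in male SMC (median 342.0), from 221.4 to 375.8 CPM in female sham (median 296.9) and from 261.5 to 302.2 CPM in female SMC (median 276.5). Male values lay mostly above female values. Both genes stayed called in the 24 fits that left out 1 library, and Psme4 had an FDR of 0.0628 in sham mice alone. The other 6 members with an unadjusted p under 0.05 were Psma7 (0.21), Psmb4 (0.16), Psmb5 (0.12), Psmd5 (0.15), Psmd9 (-0.11) and Psmg4 (0.31), in log2 difference of males minus females.

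Genes that work with the proteasome but carry other symbols were followed as lists. Among 10 tested proteasome-bound and maturation factors, 9 were lower in SMC in each sex, with medians of -0.17 in males and -0.067 in females. Sem1, the smallest lid subunit, was called in females, with a fold change of -0.45 (edgeR FDR 0.0496), and differed by -0.25 in males. Without both sham libraries of low slow fiber markers its female FDR was 0.0521, and without female SMC replicate 21 it was 0.0922. Akirin2, which carries proteasomes into the nucleus, was called in the average over the sexes along with Sem1, by -0.29 (FDR 0.0103) and -0.35 (FDR 0.0104). Among 6 genes of ubiquitin and its activation, Rps27a, which encodes ubiquitin fused to a ribosomal protein, was called in females by -0.35 (FDR 0.0265) and differed by -0.36 in males (FDR 0.0727). Among 9 ubiquitin shuttle and extraction genes, Zfand5, an activator of the 26S proteasome, was called in the average by -0.48 (FDR 0.0138). The 4 genes of proteasome gene transcription were all lower in males and 3 of 4 in females. Nfe2l2 had the only unadjusted p under 0.05 within a sex, with -0.38 in males (p 0.0103 in edgeR). Male sham replicate 4 held its highest male sham level, 69.7 CPM, where male SMC mice ranged from 29.9 to 37.9 CPM. The male value of Nfe2l2 thus depends in part on that mouse. Of the 9 atrophy ubiquitin ligases, 9 were lower in males and 8 in females. Trim63 was called in the average, by -1.49 (FDR 0.0215), and Fbxo32 differed by -0.86 in males and -0.84 in females (FDR 0.0690 over both sexes). Male sham replicate 4 carried most of the male values, since without it Trim63 differed by -0.18 in place of -1.25 and Fbxo32 by -0.16. In females without replicate 7, Fbxo32 differed by -0.67. Trim63 remained called over both sexes without both libraries, by -0.83 (FDR 0.0240), as did Rps27a, Akirin2, Sem1 and Zfand5.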

How the data were processed

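RNA-seq was performed on gastrocnemius muscle of 24 mice, and samples were grouped by sex and treatment as labelled. The authors depleted ribosomal RNA and made directional libraries, and per the labels they used cutadapt 1.16, STAR 2.7.9a, featureCounts 1.6 and DESeq2 1.34.0 with the GRCm39 build. Which annotation was used, and with what strand option, is not given in the sources used here. The deposited values are raw counts per Ensembl gene, without normalization. Symbols were assigned by Ensembl gene identifier from a separate list of gene names, and 52083 of 55416 genes had one. Biotypes and exon lengths came from GENCODE M21 by the same identifier.

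Genes were kept by filterByExpr (16408), scaled by TMM and fitted with 1 mean per group in edgeR 4.0.16 under R 4.3.3. Tests were two-sided quasi-likelihood tests with Benjamini-Hochberg adjustment over all genes. Log2 CPM used a prior count of 2. Total counts lay between 23026627 and 36880413, so low genes such as Psmb9 carry more counting error than core subunits. Alternatives were DESeq2 1.42.0, limma 3.58.1 voomWithQualityWeights, other filters and scalings, a slow fiber covariate, both low slow fiber libraries left out, 1 sex at a time, sham mice only, and each library left out in turn. All 60 pairs of libraries of the same group were compared for duplication, and the lowest ratio of chi-square to degrees of freedom was 10.7.

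Members, lists and tests were chosen with earlier results of these data known. Members given with values in every group were those with an FDR or unadjusted p under 0.05 in any comparison, the catalytic pairs, the activators Psme1 to Psme4, and the extremes of each subcomplex in each sex. The others are given by ranges and fold changes. Promoter sequences are from RefSeq (GRCm38.p6).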

Additional observations from a re-analysis of the deposited data

Results flagged for a closer look

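In each group of 6 mice, the highest or lowest mouse was set against its nearest neighbor for every tested member and for the mean log2 CPM of each subcomplex, by Dixon's ratio. Of 228 such groups, 23 held a mouse beyond it, and chance flags about 1 in 20 groups, or 11 here. The members share libraries, so these are not independent.

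Male sham replicate 4 accounted for 13 of them, each time as the highest mouse. It held 159.7 CPM of Psmc3, 172.8 of Psmd4, 133.4 of Psmd3, 191.6 of Psmd11, 69.2 of Psmc5, 96.1 of Psmc1, 184.2 of Psmd1, 101.8 of Psmc2, 95.4 of Psmd7, 90.3 of Psma3 and 37.9 of Psma5. The mean log2 CPM was 6.48 for the ATPase ring, against 5.78 to 5.97 in the other male sham mice, and 7.72 for the other base subunits, against 6.76 to 6.997.

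Male SMC replicate 14 accounted for 5. It was the lowest of its group in Psma1 (31.1 CPM), Psme1 (12.8 CPM), Psme3 (41.0 CPM) and the mean log2 CPM of the immunoproteasome subunits (0.852, against 1.45 to 1.77), and the highest in Psmd7 (64.5 CPM). Male SMC replicate 17 was the highest in Psmb6 (58.1 CPM). Female SMC replicate 23 was the highest in Psmc2 (62.6 CPM) and Psmd8 (127.3 CPM), replicate 20 the highest in Psmd10 (3.69 CPM) and replicate 24 the lowest in Psmg4 (0.842 CPM).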

How the results depend on the processing

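Without scaling factors the median of all genes moved to -0.133 in males and -0.149 in females, so the members are read against it there. The median of the members was then -0.34 in males, -0.16 in females and -0.25 over both sexes, and all 31 26S subunits were lower in females. In females 18 members had an unadjusted p under 0.05, against 19% of all genes. Over both sexes 27 members were called among 1861 genes. The 31 subunits were lower in males under all 33 alternatives. Members called in males numbered 7 among 133 genes by DESeq2 and 3 among 93 genes by voom. With 1 library left out they numbered from 0 to 6 (6 among 78 genes without male sham replicate 5). Over both sexes they numbered 3 among 388 genes in the main fit, 9 among 778 by DESeq2 and 5 among 541 by voom. With at least 10 counts in every sample they numbered 7 among 471 genes, and with no filter 0 among 189. With 1 library left out they numbered from 2 to 11 (11 without male sham replicate 5, 7 without female sham replicate 9, 5 without female SMC replicate 21). Between males and females they numbered 4 by voom, 4 without both low slow fiber libraries and 1 in sham mice only, and from 2 to 4 with 1 library left out. The main fit called 2 members among 809 genes in that comparison. In females, members at an unadjusted p under 0.05 numbered 3 by voom and 2 without both low slow fiber libraries, against 11.9% and 16.3% of all genes. With 1 library left out they numbered from 2 to 7, against 10.9% to 14.4% of all genes. In females 13 of the 26S subunits were lower with the slow fiber score as a covariate. Counts at an unadjusted p, counts of lower subunits and fits of single members not called were added after seeing the data. The causes were not tested, beyond the fewer or more genes tested under another filter.

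Of 981 values recomputed, 923 were counted as unchanged, and none of the called members changed sign. This count does not show that sizes were stable. Fold changes that were never called could still vary with 1 library left out. The female value of Psmb8 then ran from 0.18 to 0.78, and the male value of Psmd11 from -0.34 to -0.14. Psma5 lost its call over both sexes in 13 of 24 fits that left out 1 library, with no filter (FDR 0.0754) and with the slow fiber covariate (FDR 0.0506). No paired analysis was possible because no replicate number is shared between groups. Low counts limit Psmb8, Psmb9, Psme2b, Psmg3, Psmg4 and Psmc3ip, whose SE were the largest among the members tested apart from Psmd8.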
